A study of Mus musculus with 20 samples.

Results

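The 10 genes described here are transcription factors of the early response to growth factors, stress and injury: the Fos family (Fos, Fosb, Fosl1 and Fosl2), the Jun family (Jun, Junb and Jund), the early growth response genes Egr1 and Egr2, and Myc. They were taken by gene symbol from a table of 38924 genes, and all 10 were present. Fos and Jun proteins form the AP-1 dimer, in which a Fos protein must pair with a Jun protein while Jun proteins can also pair among themselves. EGR proteins are zinc finger factors, and MYC pairs with MAX to drive growth and ribosome genes. Most of these genes are immediate early genes: serum response factor and ETS partners at their promoters switch them on within minutes of a MAP kinase signal, and their mRNAs decay fast. In liver, AP-1, Egr1 and Myc are known for their induction after partial hepatectomy and in hepatocyte injury.

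RNA was sequenced from the livers of 20 male mice on a C57/BL6 background, with 5 mice in each of 4 groups. Wild type mice (WT) and mice null for thrombospondin-1 (TSP-1, gene Thbs1, a matrix glycoprotein that can activate latent TGF-β) arrived aged 5 weeks and, after 1 week of settling in, received control chow or CDAHFD, a high fat diet without choline and with a defined amino acid mix that produces steatohepatitis and fibrosis, for 12 weeks. The groups are called NDWT and NDKO on the control diet and HFWT and HFKO on CDAHFD, and mice are numbered as labelled. The knockout is constitutive and affects every cell type, and RNA came from 1 piece of whole liver per mouse, so fewer cells of a type and less RNA per cell cannot be told apart. Values are FPKM, that is fragments scaled by gene length and by the fragments assigned to genes in the library, and ± is the SD over 5 mice. A gene was called changed at a false discovery rate (FDR) under 0.05 and an absolute log2 fold change (log2FC) over 0.58, in a limma fit over all 20 libraries on log2(FPKM + 0.1) for 14524 genes.

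Libraries held 15641545 to 23276322 fragments. The label of the knockout was checked first. Thbs1 measured 0.197 ± 0.103 FPKM for NDWT and 1.30 ± 0.390 for NDKO, against 4.62 ± 1.22 for HFWT and 3.44 ± 0.547 for HFKO. Without CDAHFD it was therefore higher in the libraries labelled TSP-1 null (log2FC 2.28, FDR 1.02e-05), the opposite of a loss of transcript. On CDAHFD the labels did not differ detectably (log2FC −0.39, FDR 0.408). FPKM per gene cannot tell transcripts of a disrupted allele from an exchange of labels, and neither was tested. Every genotype direction given here refers to the libraries as labelled. HFWT 5 stands apart by Gm23935, which reached 189998 FPKM there. The median log2FC of all tested genes was 0.53 for CDAHFD in WT and 0.50 in null mice, and −0.07 and −0.10 for genotype on the control diet and on CDAHFD. Scaling by the median of ratios brings these medians near 0, so the diet counts of the 10 genes and of the gene lists are also given under that scaling. With it the genes called by diet split into 3299 higher and 2242 lower in WT in place of 6412 and 671, and into 3225 and 1980 in place of 6088 and 581 in null mice. For genotype the split was 348 higher and 329 lower in place of 253 and 440 on the control diet, and 38 and 27 in place of 24 and 48 on CDAHFD. Quantile normalization gave 2514 higher and 2562 lower for diet among WT and 2421 and 2186 among null mice, and 246 and 236, and 65 and 39, for genotype on the control diet and on CDAHFD.

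Promoter sequence was found for 7 of the 10 genes in the RefSeq table (build GRCm38.p6), which holds no entry for Fosl1, Myc or Egr1. The 250 bases before each start were searched on both strands for a CArG box (the serum response factor site: CC, a run of A or T, GG), the AP-1 sites TGACTCA, TGACGTCA and TGACATCA, the EGR site GCGGGGGCG, the E-box CACGTG bound by MYC and MAX, the ETS core CCGGAA and TATAAA. Of 32851 promoters of the same length, 1.47% held a CArG box, 4.46%, 1.55% and 2.93% the AP-1 sites, 2.57% the EGR site, 6.02% the E-box, 12% the ETS core and 12.4% TATAAA. The windows of Fos, Jun and Egr2 are shown because these genes carry the largest Fos family, the genotype and the largest diet differences described here. Capitals mark the match.

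Fos (chr12:85473640-85473889, plus strand): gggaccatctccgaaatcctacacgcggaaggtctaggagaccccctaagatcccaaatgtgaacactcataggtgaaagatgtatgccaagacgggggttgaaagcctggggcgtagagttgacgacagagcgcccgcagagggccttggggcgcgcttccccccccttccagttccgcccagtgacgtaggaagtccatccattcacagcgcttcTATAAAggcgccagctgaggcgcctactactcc
Jun (chr4:95052223-95052472, minus strand): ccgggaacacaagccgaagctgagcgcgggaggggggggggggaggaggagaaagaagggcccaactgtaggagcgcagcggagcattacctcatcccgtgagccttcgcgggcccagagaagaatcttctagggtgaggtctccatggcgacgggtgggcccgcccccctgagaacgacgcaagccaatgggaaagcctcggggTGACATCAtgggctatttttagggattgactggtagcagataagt
Egr2 (chr10:67537619-67537868, plus strand): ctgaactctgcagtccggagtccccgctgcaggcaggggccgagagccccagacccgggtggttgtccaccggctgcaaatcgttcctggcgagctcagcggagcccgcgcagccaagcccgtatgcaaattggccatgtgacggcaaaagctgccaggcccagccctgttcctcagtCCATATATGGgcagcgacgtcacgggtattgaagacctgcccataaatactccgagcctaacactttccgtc

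Counted from the start, with −1 the base just before it, Fos held TATAAA at −33 to −28, and Jun held the AP-1 site TGACATCA at −45 to −38. Egr2 has 5 listed starts. The one shown, the third, held a CArG box at −72 to −63. The windows of starts 4 and 5 overlap this window and held the same CArG box, at the same place in the genome. Start 2 held a different CArG box, and start 1 held an E-box at −27 to −22. The window of start 2 also held the ETS core at 3 places, of which a pair overlap each other. The EGR site was found in Fosb at −50 to −42 and in Fosl2 at −79 to −71. None of these letters was found in the windows of Junb and Jund. No match of one motif overlapped a match of another in these windows, and a match is a description of the letters and not evidence of binding.

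In NDWT the Jun genes were the most abundant of the 10. Jund stood highest at 28.0 ± 10.2 FPKM, followed by Junb at 19.2 ± 4.31 and Jun at 15.8 ± 6.52, and the ranges of neighbours in this order overlapped. Jun was separated from Fosl2 (3.70 ± 0.677), whose range overlapped that of Egr1 (3.22 ± 0.591). Myc (1.22 ± 0.437), Fos (0.571 ± 0.260) and Fosl1 (0.207 ± 0.0827) followed, and Egr2 (0.0820 ± 0.0290) and Fosb (0.0616 ± 0.0354) stood lowest. The lowest genes rested on few reads, with 3 to 7 fragments per NDWT library for Egr2 and 1 to 10 for Fosb. In NDKO, Jund (34.7 ± 7.89) and Junb (23.2 ± 4.35) were again highest, but the ranges of Jun (6.46 ± 3.88) and Egr1 (5.402 ± 2.53) overlapped. In HFKO the order changed at its head, with Junb (66.8 ± 20.2) and Jund (63.2 ± 8.72) followed by Egr1 (36.6 ± 20.1) and then Jun (25.6 ± 4.64), again with overlap between each of these neighbours.

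**Figure D1:**
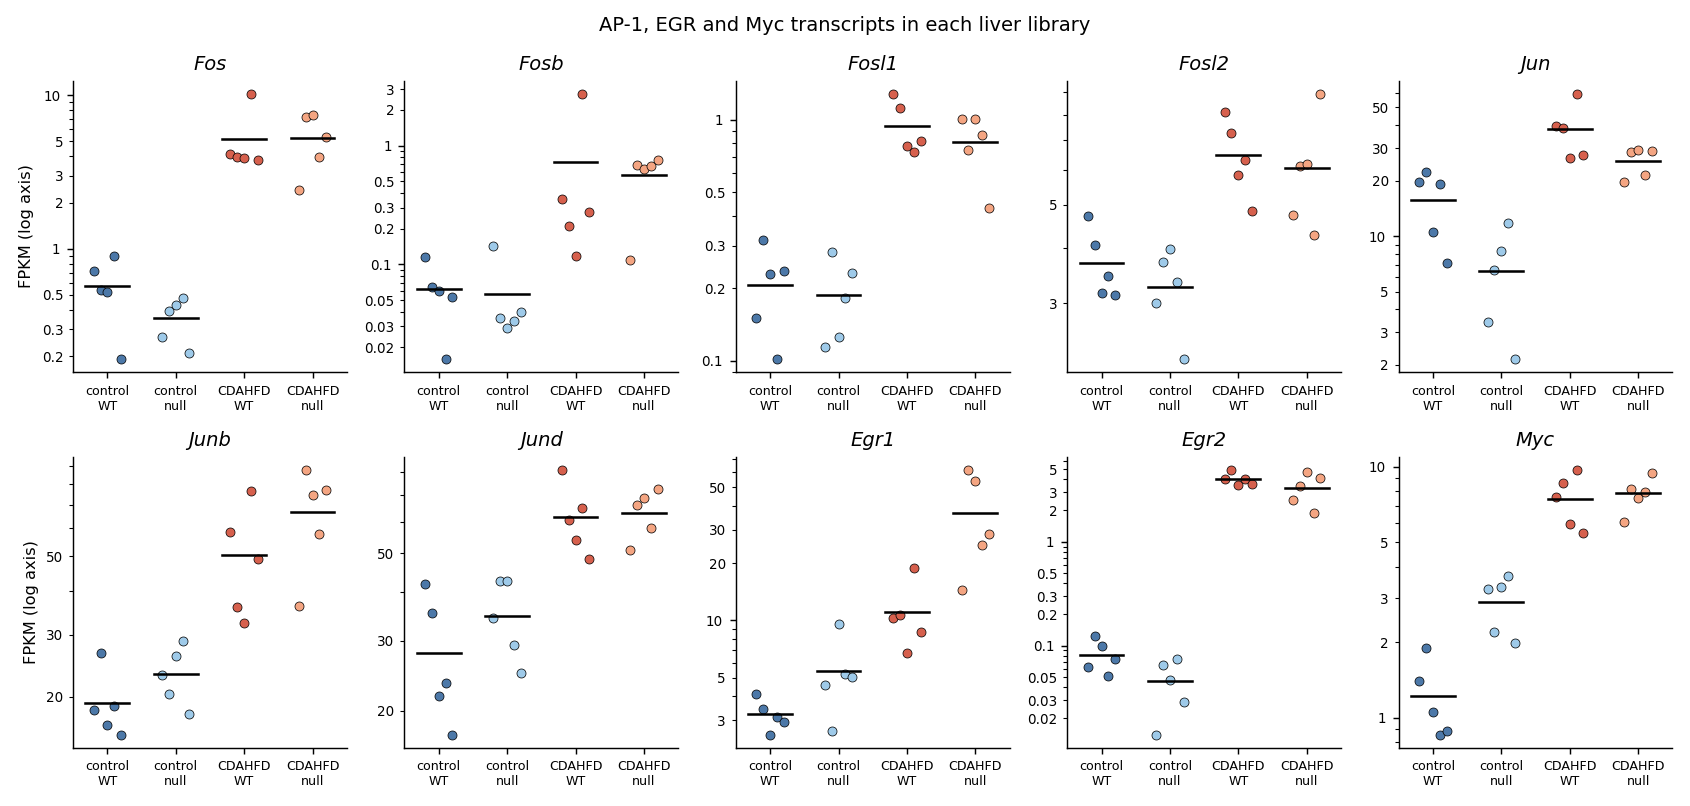
FPKM of the 10 genes in each library, on a log axis with its own scale in each panel. Points are single mice in the order of their numbers, 5 per group, and the black bar is the group mean. CDAHFD libraries lie above the control libraries of the same genotype in every panel except Fosb, where HFKO 1 at 0.109 FPKM lies below NDKO 1 at 0.142.

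All 10 genes were called higher on CDAHFD in WT mice and all 10 in null mice, and none was called lower. Of all tested genes 44.1% were called higher and 4.62% lower in WT, and 41.9% higher and 4.00% lower in null mice. Groups did not overlap for any of the 10 genes in WT, against 56.2% of all tested genes, and for 9 of 10 in null mice, against 57.8%. All 10 genes passed the filter of FPKM over 0.5 in 5 or more libraries. However, Fosb, Fosl1 and Egr2 passed it through CDAHFD libraries alone, so their count among the called genes is a description and no support for a change. Under the median of ratios, Fosl2 (log2FC 0.24, FDR 0.256) and Jun (0.78, FDR 0.0881) were no longer called in WT, nor were Fosl2 (0.33, FDR 0.115) and Jund (0.35, FDR 0.138) in null mice. Quantile normalization removed the calls of Fosb, Fosl1 and Fosl2 in both genotypes.

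In the Fos family, Fos (chromosome 12, 85473890 to 85477273, GRCm38), the founding member and the most transient, had the largest log2FC of the family. Its FPKM was 0.712, 0.535, 0.525, 0.892 and 0.192 in NDWT 1 to 5, and 4.17, 3.97, 3.92, 10.1 and 3.81 in HFWT 1 to 5. The lowest CDAHFD library lay above the highest control library by a wide margin, and HFWT 4 stood far above the other HFWT libraries. The log2FC was 2.97 (SE 0.34, FDR 2.56e-07) and the ratio of group means 9.11. In null mice the values were 0.268, 0.393, 0.432, 0.479 and 0.210 in NDKO and 2.43, 7.18, 7.47, 3.94 and 5.33 in HFKO. Again the groups did not overlap, with HFKO 1 the lowest on CDAHFD (log2FC 3.49, SE 0.34, FDR 3.54e-08, ratio of means 14.8). Under the median of ratios the log2FC of Fos was 2.46 in WT and 3.02 in null mice, and it remained called.

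Fosb (chromosome 7, 19302721 to 19310045), a close relative of Fos with a short splice form in many tissues, was near the detection floor on the control diet. Its FPKM was 0.115, 0.064, 0.060, 0.016 and 0.053 in NDWT, and 0.357, 0.212, 0.118, 2.71 and 0.278 in HFWT. Each HFWT library exceeded each NDWT library, but HFWT 3 did so only by 0.118 against 0.115, and HFWT 4 held most of the group mean of 0.736 ± 1.11. The log2FC was 1.67 (SE 0.53, FDR 0.00847) with all libraries and 1.05 (SE 0.39, FDR 0.0220) without HFWT 4, a comparison added after the values were seen. In null mice Fosb was 0.142, 0.035, 0.029, 0.033 and 0.040 in NDKO and 0.109, 0.682, 0.637, 0.674 and 0.755 in HFKO. Here 4 HFKO libraries lay close together and well above control, whereas HFKO 1 fell below NDKO 1 (log2FC 2.00, SE 0.53, FDR 0.00244). With a pseudocount of 1 the log2FC of this low gene was 0.54 and 0.56, below the threshold.

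Fosl1 (FRA1; chromosome 19, 5447703 to 5455945), which lacks the transactivation domain of Fos and is itself an AP-1 target, rested on 3 to 11 fragments per control library. It ranged from 0.102 to 0.316 FPKM in NDWT and from 0.734 to 1.27 in HFWT (log2FC 1.78, SE 0.25, FDR 3.04e-06). In null mice it ranged from 0.114 to 0.284 on control diet and from 0.430 to 1.01 on CDAHFD (log2FC 1.65, FDR 8.37e-06). Fosl2 (FRA2; chromosome 5, 32136472 to 32157831), the most abundant Fos gene on the control diet, had the smallest log2FC of the 10 in this fit. By the ratio of means Jund was lower in null mice (1.82 against 1.86), and under quantile normalization Fosb was lower in WT (0.037 against 0.15). It was 3.70 ± 0.677 FPKM in NDWT and 6.48 ± 1.25 in HFWT (log2FC 0.79, SE 0.19, FDR 0.000918), and 3.26 ± 0.678 in NDKO and 6.05 ± 1.79 in HFKO (log2FC 0.85, FDR 0.000459). These differences exceed the median of all genes by 0.25 and 0.35 on the log2 scale, and the calls were lost under both scalings.

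Among the Jun genes, Jun (chromosome 4, 95049034 to 95052222), the strongest transactivator of the family, was 19.7, 22.2, 10.6, 19.1 and 7.15 FPKM in NDWT and 39.8, 38.6, 26.5, 58.9 and 27.7 in HFWT. All HFWT libraries lay above all NDWT libraries, with HFWT 4 again highest (log2FC 1.34, SE 0.38, FDR 0.00387). It was 3.40, 6.58, 8.29, 11.8 and 2.16 in NDKO and 19.6, 28.5, 29.4, 21.6 and 28.8 in HFKO. The groups were again apart, from a lower control level than in WT (log2FC 2.19, SE 0.38, FDR 4.09e-05, and 1.66 under the median of ratios). An antisense gene, BC042782, overlaps Jun and reached at most 0.447 FPKM.

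Junb (chromosome 8, 84976909 to 84978748), which can oppose Jun on some promoters, rose in WT, with 19.2 ± 4.31 FPKM in NDWT and 50.6 ± 18.0 in HFWT (log2FC 1.35, SE 0.24, FDR 4.93e-05). In null mice it rose from 23.2 ± 4.35 to 66.8 ± 20.2 (log2FC 1.48, FDR 1.86e-05), and both calls held under the median of ratios (0.79 and 0.94). Jund (chromosome 8, 70697739 to 70700616), the constitutive member of the family, went up in WT, 28.0 ± 10.2 FPKM without and 61.9 ± 12.5 with CDAHFD (log2FC 1.19, SE 0.21, FDR 3.89e-05). In null mice it went from 34.7 ± 7.89 to 63.2 ± 8.72 (log2FC 0.88, SE 0.21, FDR 0.000840), a call that the median of ratios removed.

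Of the EGR genes, Egr2 (chromosome 10, 67535475 to 67542188), known from Schwann cells and lymphocytes, showed the largest diet difference of the 10. Its FPKM was 0.063, 0.123, 0.099, 0.051 and 0.074 in NDWT and 4.05, 4.90, 3.54, 4.04 and 3.59 in HFWT. It was 0.014, 0.065, 0.047, 0.074 and 0.029 in NDKO and 2.51, 3.42, 4.71, 1.88 and 4.08 in HFKO. Control libraries were all close to 0, with 1 to 7 fragments each, and CDAHFD libraries held 126 to 314. The log2FC was 4.51 (SE 0.21, FDR 1.24e-12) in WT and 4.50 (SE 0.21, FDR 2.31e-12) in null mice, and the ratios of group means were 49.1 and 72.5. The pseudocount of 0.1 lies above 9 of the 10 control values, so the log2FC understates this change. HFWT was the tightest group of any of the 10 genes, with a coefficient of variation of 13.6%.

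Egr1 (chromosome 18, 34859823 to 34864984), the best known of the family and a target of serum response factor, was 4.10, 3.41, 2.52, 3.12 and 2.93 FPKM in NDWT and 10.2, 10.7, 6.72, 18.9 and 8.71 in HFWT. The groups did not overlap, and HFWT 4 was once more highest (log2FC 1.68, SE 0.36, FDR 0.000310). It was 4.59, 2.62, 9.53, 5.25 and 5.02 in NDKO and 14.4, 61.6, 53.7, 24.8 and 28.5 in HFKO. HFKO 2 and HFKO 3 stood above all other libraries, and HFKO 1 lowest in its group (log2FC 2.66, SE 0.36, FDR 1.87e-06). Myc (chromosome 15, 61985391 to 61990374), the driver of cell growth, was 1.41, 1.90, 1.05, 0.858 and 0.886 FPKM in NDWT and 7.57, 8.61, 5.94, 9.72 and 5.43 in HFWT (log2FC 2.54, SE 0.21, FDR 3.22e-09). It was 3.26, 2.20, 3.31, 3.66 and 1.98 in NDKO and 6.05, 8.19, 7.55, 7.92 and 9.48 in HFKO (log2FC 1.44, SE 0.21, FDR 6.56e-06). The control levels of Myc differed between genotypes, and on CDAHFD the difference had a 95% interval from −0.36 to 0.54.

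**Figure D2:**
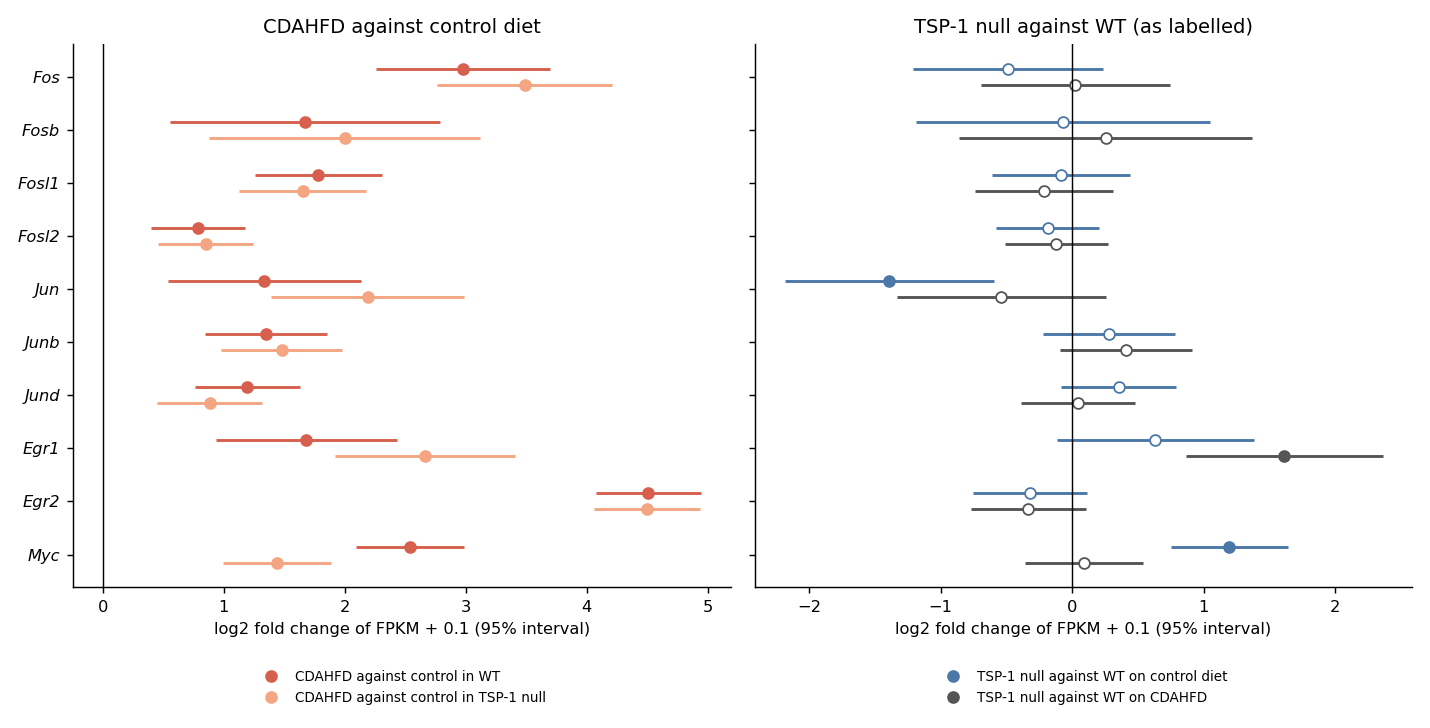
Log2 fold change of FPKM + 0.1 with its 95% interval from the limma fit for each gene, for diet on the left and genotype on the right. Filled points passed the threshold and open points did not. All 10 diet points of both genotypes are filled, from 0.79 for Fosl2 to 4.51 for Egr2 in WT, and on the right only Jun and Myc on the control diet and Egr1 on CDAHFD are filled.

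TSP-1 null against WT on the control diet asks whether the knockout alters these genes without the diet. Jun was called lower and Myc higher, and the other 8 genes were not called. Of all tested genes 4.77% were called, 1.74% higher and 3.03% lower. Jun had a mean of 6.46 ± 3.88 FPKM in NDKO against 15.8 ± 6.52 in NDWT (log2FC −1.39, SE 0.38, FDR 0.0207). The groups overlapped, since NDKO 3 and NDKO 4 lay above NDWT 5. The log2FC stayed between −1.67 and −1.07 when single libraries were left out. The call was lost without NDWT 2 (log2FC −1.24, FDR 0.0513) or NDKO 1 (−1.23, FDR 0.0637), and in a fit of these 2 groups alone (−1.39, FDR 0.0945). Myc was 2.88 ± 0.742 FPKM in NDKO against 1.22 ± 0.437 in NDWT (log2FC 1.20, SE 0.21, FDR 0.00152). All 5 NDKO libraries lay above all 5 NDWT libraries, as for 9.03% of all tested genes, and the call held without any single library (FDR 0.000497 to 0.00575). The 95% intervals of the other 8 genes included 0, from −1.21 to 0.24 for Fos and from −0.11 to 1.38 for Egr1.

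On CDAHFD, Egr1 was the 1 gene of the 10 called between the genotypes, and 0.496% of all tested genes were called. Its mean was 36.6 ± 20.1 FPKM in HFKO and 11.1 ± 4.65 in HFWT (log2FC 1.61, SE 0.36, FDR 0.0321, ratio of means 3.31). The 4 HFKO libraries 2 to 5 lay above all HFWT libraries, and HFKO 1 lay below HFWT 4. The log2FC stayed between 1.38 and 1.90 when single libraries were left out, but the FDR lay near its threshold. The call was lost without HFWT 1, 2, 3 or 5 or HFKO 2, 3 or 4 (FDR 0.0584 to 0.0925), in a fit of these 2 groups alone (FDR 0.0933) and with the replicate number as a block (FDR 0.0655). Without HFWT 4, the high library of its group, the log2FC was 1.83 (FDR 0.0188). Jun was 25.6 ± 4.64 FPKM in HFKO and 38.3 ± 13.04 in HFWT, not called (log2FC −0.54, 95% interval −1.33 to 0.26). No other of the 10 genes was called, and 4.98% of all tested genes, none of the 10 among them, had groups without overlap.

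The interaction subtracts the control diet genotype difference from the one on CDAHFD. It was called for 0 of the 10 genes by limma and for 0.647% of all tested genes. By voom on recovered fragments 0 were called too, and at an unadjusted p under 0.05 there was 1 by either fit. That gene was Myc (log2FC −1.11, SE 0.30, FDR 0.0809), whose FDR fell to 0.0404 without NDWT 2. Egr1 had an interaction of 0.98 (95% interval −0.07 to 2.04, FDR 0.374) and Jun of 0.85 (95% interval −0.27 to 1.98, FDR 0.490), so neither genotype difference was shown to depend on the diet.

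The make-up of the AP-1 pool was described as shares of the summed FPKM of the 7 Fos and Jun genes, ratios that do not depend on scaling between libraries. They were chosen after the values were seen and carry no test. The sum was 67.5 ± 19.8 FPKM for NDWT and 68.2 ± 13.02 for NDKO, and 164 ± 41.4 for HFWT and 168 ± 36.0 for HFKO. The Jun share ran from 16.3% to 29.1% in NDWT and from 4.53% to 16.04% in NDKO, and from 20.5% to 26.7% in HFWT and from 14.5% to 17.0% in HFKO. On either diet all 5 null libraries thus lay below all 5 WT libraries, on control chow by the narrow margin of 16.04% against 16.3%. The FPKM of Jun itself overlapped between the genotypes on both diets. How often ratios of other genes separate these groups was not computed. The ratio of Jun to Jund behaved alike, at 0.411 to 0.815 for NDWT against 0.0867 to 0.405 for NDKO, and 0.491 to 0.904 for HFWT against 0.373 to 0.432 for HFKO. Within the Fos family, Fosl2 made up 81.6% ± 3.51 in NDWT and 84.3% ± 1.94 in NDKO, but 31.8% to 58.2% in HFWT and 40.5% to 57.7% in HFKO. The 4 Fos genes together made up 5.48% to 6.003% of the sum in NDKO and 6.63% to 8.13% in HFKO, without overlap, and 5.59% to 8.23% in NDWT and 7.18% to 9.02% in HFWT, with overlap.

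The EGR genes and Fos also differed in their balance, described by ratios that carry no test. Egr1 exceeded Fos by 1.71 to 2.70 times in HFWT and by 5.34 to 8.59 times in HFKO, without overlap, HFWT 4 and HFKO 1 included. The same ratio in control livers ran from 3.50 to 15.3 in NDWT and from 6.67 to 23.9 in NDKO, with overlap. The ratio of Egr1 to Egr2 was 43.8 ± 18.5 in NDWT and 2.74 ± 1.11 in HFWT, and on CDAHFD all HFKO libraries (5.74 to 18.0) lay above all HFWT libraries (1.90 to 4.67).

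**Figure D3:**
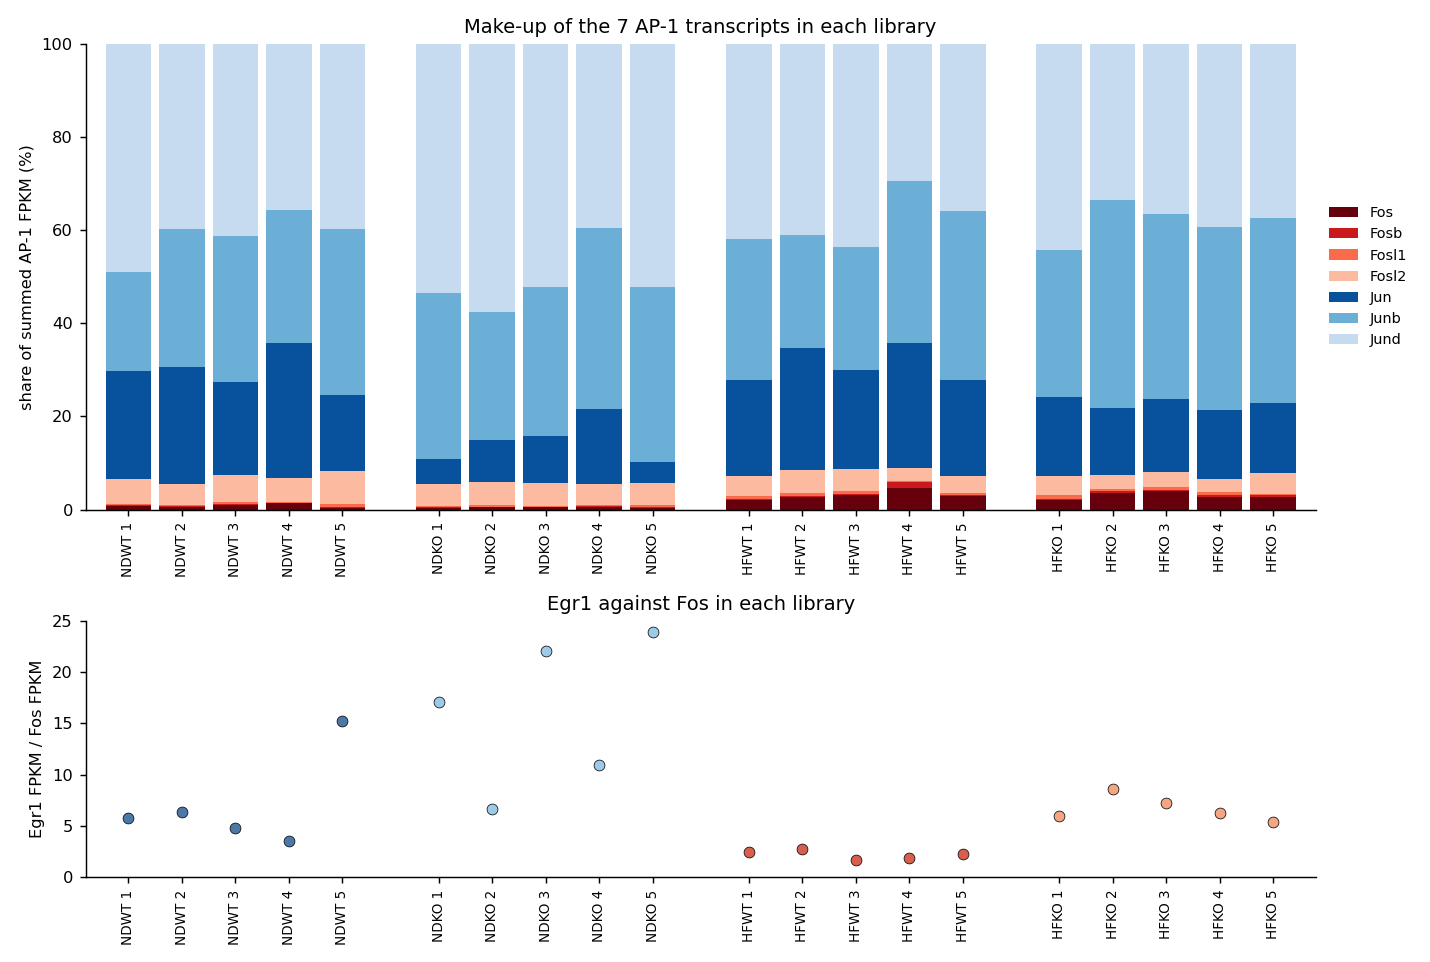
Upper panel, share of each Fos gene (reds) and Jun gene (blues) in the summed FPKM of the 7 AP-1 genes in each library. Lower panel, ratio of Egr1 to Fos FPKM in each library, with 1 point per mouse. The dark blue Jun share is smaller in NDKO and HFKO than in the WT group on the same diet, and the ratio lies between 1.71 and 2.70 in HFWT and between 5.34 and 8.59 in HFKO.

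Within groups, the deviations of many of these genes were correlated. Deviations from group means of log2(FPKM + 0.1) were correlated over the 20 libraries for all 45 pairs, with two-sided p from 100000 permutations within groups and Benjamini-Hochberg adjustment over the pairs. The correlation was positive for 37 pairs, with a median r of 0.456 and a range from −0.361 to 0.799, and 17 pairs had an adjusted p under 0.05. Other pairs of genes were not counted in this way, and all genes of 1 library share its depth and handling. The count is therefore not shown to be particular to these genes. Fosl2 and Jund followed each other most closely (r = 0.799, rho = 0.851, r = 0.82 without the 2 libraries farthest from the median of Fosl2, raw permutation p = 1e-05, the smallest these permutations can give, adjusted p = 0.00045). Fos and Jun had r = 0.753 and rho = 0.811 (raw permutation p = 3e-05, adjusted p = 0.000675), and r = 0.678 without the 2 libraries farthest from the median of Fos. Fosl2 and Jun (r = 0.649, rho = 0.645, raw permutation p = 0.00117, adjusted p = 0.01035) and Jun and Junb (r = 0.637, rho = 0.669, raw permutation p = 0.00016, adjusted p = 0.0024) completed the 4 pairs that passed in each of 22 alternatives, which left out each library in turn, used a pseudocount of 1 or scaled by the median of ratios. The number of pairs passing fell to 4 without HFKO 1, 8 without HFWT 4, 9 without HFWT 3, 10 without NDWT 5, and 11 without NDWT 2, NDKO 5 or HFWT 5. Fosl1 was the exception in sign. Its r was negative with 8 of the 9 others, from −0.361 with Fos, and none of these passed the adjustment. The r of Egr2 was positive with all 9 others, but with all libraries 0 of its pairs passed. Both genes rested on few fragments on the control diet.

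The ranks of the libraries within their groups come from the same values and restate them by library. HFWT 4 was highest in its group for 6 of the 10 genes, Fos, Fosb, Jun, Junb, Egr1 and Myc, and lowest for 1, Fosl1. HFKO 1 was lowest in its group for 7 genes, and NDKO 5 for 6. Among the 14514 other tested genes, those whose within-group deviations were most like those of Fos were Gm10382 (r = 0.757), Igfbp1 (r = 0.744) and Pck1 (r = 0.742), the latter pair being fasting-responsive genes of hepatocytes. Those most like Jun were Ppp1r15a (r = 0.833), Plk3 (r = 0.815) and Rpp38 (r = 0.790), and those most like Myc were Anp32b (r = 0.918), Plk3 (r = 0.881) and Socs3 (r = 0.873). For Egr1 they were Phpt1 (r = 0.759), Gm22818 (r = 0.7102) and Rnf113a1 (r = 0.694). These likenesses are the highest of many over 20 libraries and are given as descriptions.

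**Figure D4:**
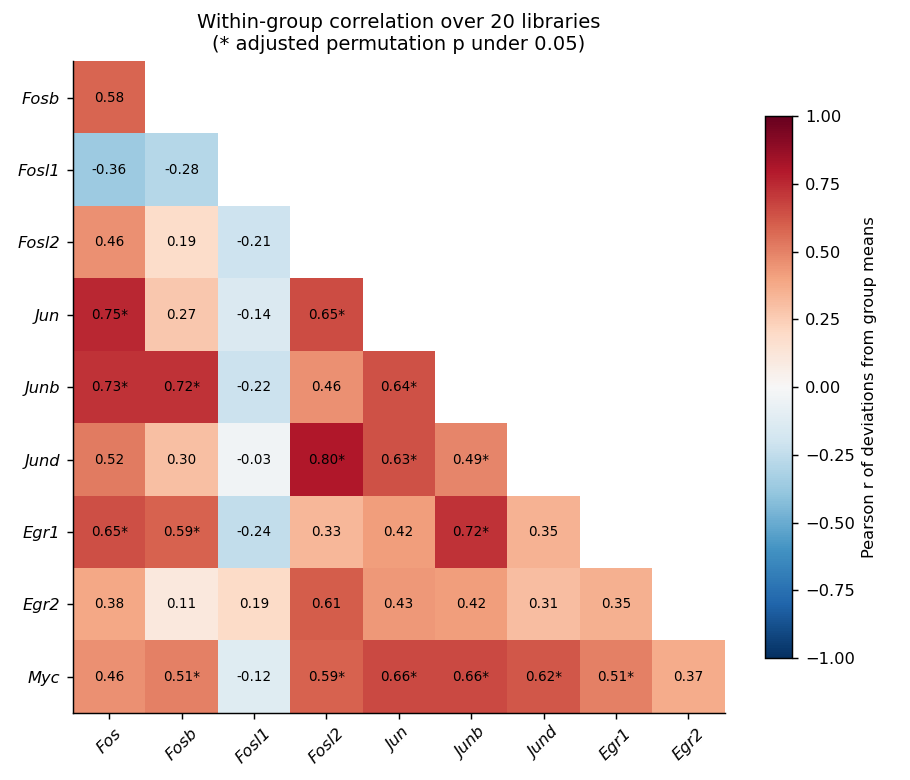
Pearson r of deviations from group means over 20 libraries for each pair of the 10 genes, with a star where the adjusted permutation p is under 0.05. All cells off the Fosl1 row and column are positive, and the highest is Fosl2 with Jund at 0.799.

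The other factors of the AP-1 and bZIP kind rose with them on CDAHFD. Of 13 tested partners and relatives, 11 were called higher in WT and 9 in null mice, with 0 lower, and the list had a median log2FC of 1.03 and 1.04 beside 0.53 and 0.50 for all genes. For this list and those below, 44.1% of all tested genes were called higher and 4.62% lower by diet in WT. In null mice these shares were 41.9% and 4.00%, and between the control diet groups 1.74% and 3.03%. Under the median of ratios 6 were higher and 1 lower in WT, and 5 and 1 in null mice. Atf3, a stress-induced partner of Jun, went from 0.909 FPKM in NDWT to 27.3 in HFWT and from 0.466 in NDKO to 20.7 in HFKO (log2FC 4.79 and 5.22). Between the control diet groups Atf3 (−0.84, FDR 0.0172), Maff (−1.24, FDR 0.00579) and Nfe2l2 (−0.69, FDR 8.05e-05) were called lower in NDKO and none higher. Of 4 tested EGR relatives and co-repressors, 3 were called higher in WT, namely Egr3 (2.27), the EGR co-repressor Nab2 (1.21) and Wt1 (2.05), and all 4 with Nab1 in null mice. Under the median of ratios 3 were higher in WT and 2 in null mice, where Nab1 (0.12) and Nab2 (0.33) were no longer called.

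Upstream of these genes, 7 of 8 members of the SRF, ETS partner and MRTF list were called higher on CDAHFD in both genotypes, with medians of 0.87 and 0.92. Among all tested genes 44.1% and 41.9% were called higher. Mkl1, a co-activator of serum response factor also called MRTF-A, had a log2FC of 1.78 and 1.20, and Ets2 of 1.17 and 1.56. Only 2 and 3 of the 8 were called under the median of ratios. Mkl1 was also called higher in NDKO than in NDWT (0.61, FDR 0.0165). Of 13 tested MAP kinases and their kinases, 4 in WT and 5 in null mice were called higher, which became 3 higher and 2 lower, and 3 and 0, under the median of ratios. Their median of 0.43 and 0.38 lay below that of all genes. Mapk3 (ERK1; 1.59 and 1.62), Mapk7 (ERK5; 1.98 and 1.94) and Map2k6 (1.79 and 1.58) were among them, while Mapk8 (JNK1) was 0.09 and 0.28 and not called. Of 12 phosphatases and Sproutys that limit MAP kinase signals, 8 were called higher in WT and 11 in null mice, beside 44.1% and 41.9% of all genes, and under the median of ratios 7 higher and 1 lower, and 7 and 0. Dusp8 (2.99 and 2.44), Dusp5 (2.49 and 2.90) and Dusp2 (2.39 and 2.31) had the largest log2FC. Against NDWT, NDKO had Dusp6, Spry4 and Spred1 called lower (−0.77, −0.69 and −0.92). Under the median of ratios 1 gene of this list was higher and 2 were lower, and without a filter 0 and 2.

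Not every immediate early gene followed the 10. Of 21 other tested immediate early genes, 12 were called higher and 1 lower on CDAHFD in WT, and 15 and 1 in null mice. The shares of all tested genes called higher were 44.1% and 41.9%. Under the median of ratios the counts of this list became 9 and 3, and 10 and 1. Klf6 (2.89 and 2.66), Ier3 (3.09 and 2.89), Ier5 (2.74 and 2.65) and Rhob (1.88 and 2.02) were among the higher ones. The gene called lower in WT was Nr4a2 (−0.86, FDR 0.00622), and in null mice Gadd45g (−1.32, FDR 0.0120). In control livers Gadd45g (2.13) and Ctgf (1.03) were called higher in NDKO and Cyr61 (−1.46) and Nr4a2 (−1.13) lower. Of 5 inducible heat shock genes, chaperones switched on by misfolded protein, 3 were called lower on CDAHFD in WT (Hspa1b −2.81, Hsph1 −1.72, Dnajb1 −0.74), whereas in null mice Hspa1a was called higher (1.98) and Hsph1 lower (−0.72). The medians were −1.01 and 0.24, and under the median of ratios 4 were lower in WT, and 1 was higher and 2 lower in null mice. In control livers 4 of 5 heat shock genes were called lower in NDKO, from 60.0 FPKM in NDWT to 7.34 in NDKO for Hspa1b (−3.10, FDR 6.39e-05), beside the lower Jun, and their part in that difference was not tested.

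Of 14 clock genes, 4 were called higher and 1 lower in WT on CDAHFD, and 5 higher in null mice, but under the median of ratios 3 higher and 6 lower, and 5 and 5. Among all tested genes 44.1% were called higher in WT and 41.9% in null mice. The median log2FC of the clock genes was 0.29 and 0.42, below the 0.53 and 0.50 of all genes. Between control groups Per1, which is also induced like an immediate early gene, was called higher in NDKO (1.13, FDR 0.0107) and Per2 lower (−0.77, FDR 0.0345). The call of Per2 was lost under the median of ratios and without a filter, where 1 clock gene was higher and 0 lower. The part of time of day in the genotype differences was not tested. Of 12 tested partners and rivals in the MYC network, 5 were called higher and 1, Mlxipl, lower in WT, and 4 higher in null mice (1 and 2, and 3 and 1, under the median of ratios). The median log2FC of this list was 0.50 and 0.53, near the 0.53 and 0.50 of all genes. Of 16 MYC targets, 5 were called higher and 1, Ldha, lower in WT, and 3 higher in null mice. Their medians of 0.44 and 0.34 lay below the median of all genes, although Myc itself had 2.54 and 1.44, and under the median of ratios 0 targets were higher and 4 lower in WT, and 1 and 1 in null mice. Between NDKO and NDWT, where Myc was called higher in NDKO, 0 of the 16 targets were called, beside 4.77% of all tested genes. At that share a count of 0 says little about these targets.

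AP-1 targets had the largest median of the 11 lists of the pathway. All 12 tested of 15 were called higher on CDAHFD in both genotypes, with a median log2FC of 3.18 and 3.23. Of all tested genes 44.1% were called higher in WT and 41.9% in null mice. All 12 were also higher under the median of ratios, and without a filter 13 of the listed genes were, in each genotype. The filter can admit genes that are high on CDAHFD alone, so this count is a description and no support for a change. Timp1, the tissue inhibitor of metalloproteinases, had 5.18 and 5.73, Plaur, the urokinase receptor, 4.41 and 4.32, and Vim, an intermediate filament of mesenchymal cells, 3.41 and 3.09. These genes are also markers of fibrosis and inflammation. Against NDWT, 4 of the 12 were called lower in NDKO and none higher, beside 3.03% and 1.74% of all tested genes. Cd44 (−1.11), Ccl2 (−1.63) and Ccnd1 (−0.62) were among those called lower, and without a filter 3 were lower. The part of the lower Jun in this was not tested. Between genotypes on CDAHFD, 0 of 130 tested genes of these lists were called by limma, beside 0.496% of all tested genes. At that share a count of 0 says little about these lists. Of the 130, 22 had an unadjusted p under 0.05 and 1 was called by voom. The share of all genes at an unadjusted p under 0.05 is not given here.

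**Figure D5:**
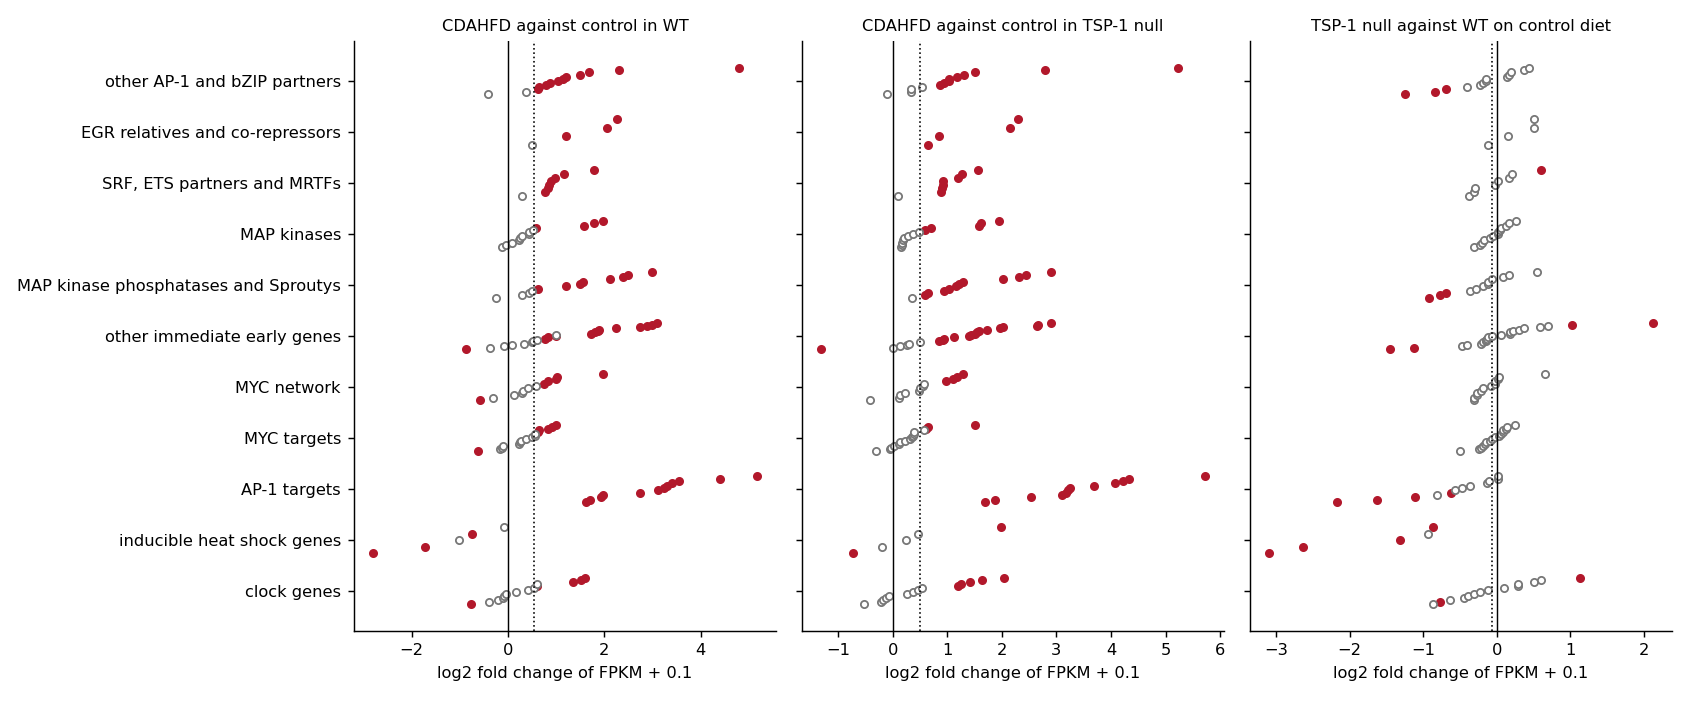
Log2 fold change of FPKM + 0.1 for each tested gene of 11 lists in 3 comparisons, with called genes in red and others open. The dotted line is the median of all tested genes, 0.53, 0.50 and −0.07. AP-1 targets lie furthest to the right in both diet comparisons, and inducible heat shock genes furthest to the left on the control diet.

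Many, but not all, of the listed cell type markers differed with the diet. Beside their counts, 44.1% of all tested genes were called higher and 4.62% lower in WT, and 41.9% and 4.00% in null mice. Of the genes listed, all 8 of stellate cells and myofibroblasts, all 5 of cholangiocytes, 6 of 7 of T and B cells and the 3 tested of 5 of neutrophils were called higher in both genotypes. The filter can admit genes that are high on CDAHFD alone, so these counts are descriptions and no support for a change. Without a filter 6 of T and B cells and 4 of neutrophils were called higher in each genotype. Of 8 macrophage markers 4 were higher and 2 lower in both genotypes, and of 6 endothelial markers 1 was higher in WT and 2 in null mice. Of 8 hepatocyte markers 2 were lower in WT and 5 in null mice, and of 5 erythroid markers 1 and 2 were lower. Under the median of ratios several of these counts changed. In WT 7 of 8 hepatocyte and 3 of 5 erythroid markers were then lower, 4 macrophage markers were higher and 3 lower, and of the endothelial markers 0 were higher and 2 lower. In null mice 6 hepatocyte and all 5 erythroid markers were lower, 1 endothelial marker was higher, and the macrophage counts did not change. Stellate cell markers were then higher for 7 in WT and 6 in null mice, T and B cell markers for 5 and 3, and the cholangiocyte and neutrophil counts were as before. In WT the summed FPKM of the macrophage list went from between 154 and 211 to between 899 and 1216, that of cholangiocytes from between 15.2 and 18.0 to between 292 and 488, and that of stellate cells from between 49.7 and 63.3 to between 239 and 470. The hepatocyte sum went from between 38279 and 45064 to between 28988 and 41019. Such sums weigh the most abundant genes of a list most. The median log2FC of the macrophage list was 0.48 in WT, below the 0.53 of all genes, and 0.92 in null mice, above the 0.50 of all genes. Ly6g, a defining neutrophil marker, was at 0 in every NDWT and HFWT library. The part of these cell types in the diet differences of the 10 genes was not tested. For genotype on the control diet 3 of 50 tested markers were called, beside 4.77% of all tested genes. Cps1 and Ass1 were higher and Acta2 lower in NDKO. On CDAHFD 0 markers were called by limma, beside 0.496% of all tested genes, 13 had an unadjusted p under 0.05 and 1 was called by voom.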

How the data were processed

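The authors sequenced oligo(dT) selected liver RNA with a directional library kit on an Illumina HiSeq instrument and processed it with QuickRNASeq. The submitters' processing notes name STAR 2.5.2, featureCounts and Subread 1.5.1, and the build GRCh38, while coordinates in the table are those of GRCm38. The strand setting of the counting is not given in the sources used here. The authors deposited FPKM to 3 decimals with gene length, 20 libraries in 1 table, with no further normalization between libraries. FPKM times length and library total came out whole (within 0.1) for 100% of values checked, at least 93.3% of the positive values in any library, which gave back fragments per gene. On a gene of 1 kb, 3 fragments equal 0.129 to 0.192 FPKM. These floors cover counting error only. No 2 libraries of a group were copies (chi-square per degree of freedom 12.1 or more).

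Groups follow the labels. limma 3.58.1 in R 4.3.3 was fitted on log2(FPKM + 0.1) with a mean per group and a trended prior variance, two-sided, with Benjamini-Hochberg adjustment over 14524 genes (FPKM over 0.5 in 5 or more libraries). The fit was tested on simulated data. Alternatives were other pseudocounts (0.01 and 1), filters, scalings and variance priors, a fit to the compared groups alone, calls by FDR without a fold limit, a replicate block, voom on recovered fragments and each library left out. The 10 genes and the 19 gene lists were chosen with earlier results of these data known. The text names the 10 genes, Thbs1, of each list at most the 4 called with the lowest FDR or those of counts of 5 or fewer, and the 3 genes most like Fos, Jun, Egr1 and Myc. Mapk8, Gm23935, BC042782 and Ly6g were named after their values were seen. One listed gene is not reported here by name. The authors' fold changes are not in the table. Figures used matplotlib 3.10.9 with Python 3.11.15.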

Additional observations from a re-analysis of the deposited data

Results flagged for a closer look

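Each of the 10 genes was examined in each of the 4 groups for a library far from the other 4, by Dixon's gap over range with a critical value of 0.71. Of 40 groups examined 5 stood out, and chance gives about 1 in 20. HFWT 4 was highest for Fos at 10.146 FPKM, with the next HFWT library at 4.172, and for Fosb at 2.713 FPKM, with the next at 0.357. In the other 3 groups Fosb was 0.142 FPKM in NDKO 1 (next 0.040), Fosb was 0.109 FPKM in HFKO 1, the lowest, where the nearest was 0.637, and Junb was 26.54 FPKM in NDWT 2 (next 18.749). Without HFWT 4, 9 of the 10 genes were called higher on CDAHFD in WT, with a log2FC of 2.71 for Fos, and Fosb was not tested because it no longer passed the filter. In a fit added after seeing the data, which kept the genes passing over all 20 libraries, Fosb had a log2FC of 1.05 and all 10 were called. No genotype difference of the 10 genes was called as different between the diets.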

How the results depend on the processing

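The counts of 10 genes called by diet in each genotype stayed within 1.5 times of the main value under all alternatives run, with 9 to 10 when single libraries were left out, because Fosb no longer passed the filter without HFWT 4 or HFKO 2 to 5. In a fit of only the groups compared, 1 gene was called by genotype on the control diet (2 in the main fit) and 0 on CDAHFD (1 in the main fit). Leaving out single libraries gave 1 to 2 on the control diet, 0 to 1 on CDAHFD and 0 to 1 for the interaction. The replicate block left 0 on CDAHFD. The numbers do not pair the mice: deviations of same-numbered libraries correlated between −0.133 and 0.0812 over 30 pairs, and the block changed no other call of the 10 genes. Pairs of genes with correlated deviations numbered 17, 16 with the median of ratios, 18 with a pseudocount of 1 and 4 to 20 without single libraries, alternatives chosen after seeing the data. Signs turned only where log2FC was near 0 and not called. The Egr2 interaction (−0.01) was 0.46 with a pseudocount of 0.01, 0.10 with the median of ratios and 0.49 by voom, and Fos between genotypes on CDAHFD (0.02) was −0.027 by voom. Without single libraries, genotype log2FC on the control diet ran from −0.24 to 0.040 for Fosb and −0.22 to 0.036 for Fosl1. On CDAHFD it ran from −0.13 to 0.29 for Fos, −0.049 to 0.64 for Fosb (0.87 without HFWT 4 when all genes were kept), −0.040 to 0.15 for Jund and −0.014 to 0.19 for Myc. The interaction ran from −0.25 to 0.052 for Fosl1, −0.083 to 0.18 for Fosl2, −0.012 to 0.33 for Junb and −0.15 to 0.17 for Egr2. The cause of these changes was not tested. Of all genes, 693 were called by genotype on the control diet but 393 with a pseudocount of 1 and 1899 without a fold threshold. On CDAHFD the 72 became 127 without a filter, 132 by voom, 163 without a fold threshold and 40 with only the groups compared. The 94 of the interaction became 54 without a filter, and the 6669 of diet in TSP-1 null mice 10406 without a fold threshold. Depth limits Egr2, Fosb and Fosl1 on the control diet.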
